A study of Mus musculus with 9 samples.

Results

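The 9 genes of the HoxD cluster and the adjacent homeobox gene Evx2 were followed through single-cell RNA-seq libraries of mouse forelimb buds. The members were the rows of the expression matrices that carried the symbols Hoxd1, Hoxd3, Hoxd4, Hoxd8, Hoxd9, Hoxd10, Hoxd11, Hoxd12, Hoxd13 and Evx2, and all 10 were found in each of the 9 matrices, among 32289 features. Each library came from 1 pair of forelimb buds at E10.75 (embryos of 37 to 39 somites), on a Swiss Albino background. There were 3 libraries each of wild-type (Wt) embryos, embryos homozygous for EC1CRM8Δ (E1C8Δ/Δ) and embryos homozygous for EC1CRM5Δ (E1C5Δ/Δ). Both alleles are germline deletions of enhancers of Grem1, which encodes an extracellular protein that blocks BMP signals, and both leave the HoxD cluster itself intact, although Grem1 lies on the same chromosome. The EC1 deletion, which both mutants carry, is joined in cis by deletion of CRM8 in the former and of CRM5 in the latter. The deletions were present in all cells of the embryo, and buds were sampled at 1 stage.

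HoxD genes encode homeodomain transcription factors that lie side by side on the chromosome, and their order matches the order in which they are used along the body axis and the limb. In the limb bud, enhancers on the Hoxd1 side of the cluster drive the genes in the future upper arm and forearm, and enhancers beyond Evx2 later drive the genes at the other end in the future hand and foot. Evx2 is transcribed away from Hoxd13 and shares the digit enhancers with it. Hoxd13 acts with its relative Hoxa13 in forming the digits, and Hoxd11 acts with Hoxa11 in the forearm.

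On the mm10 build (GRCm38) the members lie on chromosome 2, from Evx2 at chr2:74652991-74659557 on the minus strand to Hoxd1 at chr2:74762980-74765142 on the plus strand. Hoxd13 is annotated at chr2:74668310-74671599, Hoxd12 at chr2:74675013-74677705 and Hoxd11 at chr2:74679557-74687016, all on the plus strand. Hoxd3 (chr2:74711927-74748442) and Hoxd4 (chr2:74711929-74729160) overlap on the same strand, so the split of their reads is uncertain. The antisense transcript Hoxd3os1 overlaps Hoxd8 and the antisense transcript Haglr reaches the end of Hoxd3.

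The 250 bases before the RefSeq start (GRCm38.p6) of 4 members are given below, written in the direction of the gene. Evx2, Hoxd13 and Hoxd12 are shown because they were lower in the whole mesenchyme of the mutants, and Hoxd9, which was not called there, is shown beside them. Capitals mark matches on either strand to CAATAAA (a motif bound by HOX13 proteins), TATAAA (the TATA box) and CCAAT.
Evx2, chr2:74659558-74659807, minus strand: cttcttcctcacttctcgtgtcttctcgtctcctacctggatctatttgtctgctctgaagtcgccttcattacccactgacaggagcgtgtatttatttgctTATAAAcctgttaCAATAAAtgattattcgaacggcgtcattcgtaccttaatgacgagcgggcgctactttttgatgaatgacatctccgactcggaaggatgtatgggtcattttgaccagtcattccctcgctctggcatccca
Hoxd13, chr2:74667975-74668224, plus strand: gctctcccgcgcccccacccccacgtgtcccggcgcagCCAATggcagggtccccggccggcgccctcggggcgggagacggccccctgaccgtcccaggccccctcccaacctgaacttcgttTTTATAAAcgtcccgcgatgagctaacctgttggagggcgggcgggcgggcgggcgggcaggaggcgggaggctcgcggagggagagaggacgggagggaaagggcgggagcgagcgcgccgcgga
Hoxd12, chr2:74674763-74675012, plus strand: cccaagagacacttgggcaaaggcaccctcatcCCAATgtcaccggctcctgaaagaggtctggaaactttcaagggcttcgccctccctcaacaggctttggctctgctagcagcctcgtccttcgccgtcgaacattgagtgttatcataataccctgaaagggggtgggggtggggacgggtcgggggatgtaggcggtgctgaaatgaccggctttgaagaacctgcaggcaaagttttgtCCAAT
Hoxd9, chr2:74697513-74697762, plus strand: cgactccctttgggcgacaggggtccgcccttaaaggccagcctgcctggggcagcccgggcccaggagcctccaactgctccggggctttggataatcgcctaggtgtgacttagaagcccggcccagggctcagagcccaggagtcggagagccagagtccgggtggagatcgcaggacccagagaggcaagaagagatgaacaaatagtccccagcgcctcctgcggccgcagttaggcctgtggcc
The Evx2 stretch held 45.6% G and C, the Hoxd13 stretch 74.4%, the Hoxd12 stretch 55.6% and the Hoxd9 stretch 65.2%, against a median of 52.4% over the 32851 stretches of 27025 genes. Of the 11 stretches of the members (Hoxd11 has 2 starts), CAATAAA was found in 1, that of Evx2, against 4.2% of all stretches. TATAAA was found in 3 of the 11, those of Evx2, Hoxd13 and Hoxd4, against 12.37% of all, and in Hoxd13 the matches on the 2 strands overlap. CCAAT was found in 7 of the 11 against 33.85% of all, and GGGTGGTC, the motif of GLI proteins, in 0 of the 11 against 0.7% of all. The Hoxd9 stretch held none of the 4 motifs. These matches describe the letters of these windows and nothing about binding.

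After filters, 52432 cells were kept, of which 42473 were mesenchymal by lineage markers (506 to 8154 per library). The summed mesenchymal UMIs, each of which stands for 1 captured transcript, numbered 17843820 to 365700925 per library, and the median cell held 16908 to 47823 UMIs. Between 0.836% and 1.82% of kept barcodes of a library also occurred in another library. Levels are given below as CPM, the UMIs of a gene per 1000000 UMIs summed over the cells of a library, n is the number of libraries, and errors of levels are SDs between libraries. All 3 Wt libraries were male by Xist and Y-linked genes, whereas 4 of the 6 mutant libraries were female, so that genotype and sex are partly tied. Wt replicate 1 and E1C8Δ/Δ replicate 3, scored male, held 22.0 and 9.53 CPM of Xist beside 154 and 111 CPM of Y-linked genes, against 682 to 998 CPM of Xist in the female libraries.

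In Wt mesenchyme the members formed a graded series of patterns along the cluster. To place cells without using any HoxD gene, mesenchymal cells were assigned by their UMIs of marker genes to 8 gates: Shh (posterior), Hoxa13 (distal), Pax1 (anterior-proximal), Gsc or Creb5 (proximal), Asb4 with Msx1 (peripheral), Osr1 (posterior without Shh), Hoxa11 (future forearm) and Sox9 with Col2a1 (the cartilage-forming core). A cell went to the first gate it passed in that order. Sums of fewer than 20 cells were left out, which removed Wt replicate 3 (19 cells) and E1C8Δ/Δ replicate 1 (10 cells) from the Shh gate, and E1C8Δ/Δ replicate 1 (19 cells) from the Sox9 and Col2a1 gate.

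Evx2 and Hoxd13, at the 5′ end of the cluster, were highest in the distal and posterior gates. Hoxd13 stood at 161, 161 and 201 CPM in the Hoxa13 gate of the 3 Wt libraries, against 10.2, 13.9 and 9.12 CPM in the Gsc or Creb5 gate. In the Shh gate it stood at 168 and 124 CPM, against 5.28, 7.12 and 7.54 CPM in the Pax1 gate. All distal and posterior values lay far above all proximal and anterior values, and the Hoxa13 and Shh gates overlapped each other. The next gates in order, Hoxa11 (36.4 ± 1.75 CPM, n = 3) and Osr1 (34.6 ± 3.36 CPM, n = 3), overlapped each other but not the Shh gate. Evx2 was highest in the same gates at much lower levels, with 2.50, 3.95 and 4.82 CPM in the Hoxa13 gate and 3.67 and 1.39 CPM in the Shh gate. Outside these gates Evx2 was barely seen, at most 0.263 CPM in a Wt library of any other gate and 0 UMIs in the Asb4 with Msx1 gate.

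Hoxd12, Hoxd11 and Hoxd10, the next genes towards the middle, had progressively broader patterns. Hoxd12 was highest in the Shh gate, at 118 and 75.4 CPM, with the Hoxa13 gate (65.2, 67.3 and 95.4 CPM) overlapping it, and lowest, at 3.47 ± 1.67 CPM (n = 3), in the Asb4 with Msx1 gate. Hoxd11 was highest in the Hoxa11 gate (477 ± 103 CPM, n = 3) and the Hoxa13 gate (430 ± 61.0 CPM, n = 3), which overlapped, and still stood at 53.7 ± 6.41 CPM (n = 3) in the Pax1 gate, its lowest. Hoxd10 was about equal in the Hoxa11, Hoxa13 and Asb4 with Msx1 gates (114, 108 and 107 CPM) and lowest in the Pax1 gate (21.6 ± 6.31 CPM, n = 3).

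Hoxd9, Hoxd8 and Hoxd4 had their highest levels elsewhere, in the peripheral Asb4 with Msx1 gate. Hoxd9 stood there at 209, 162 and 173 CPM, overlapping the Sox9 with Col2a1 gate (157 ± 25.3 CPM, n = 3), and it was lowest in the Pax1, Shh and Hoxa13 gates (58.5, 66.7 and 69.0 CPM). Hoxd8 stood at 45.5, 44.4 and 44.5 CPM in the peripheral gate, above all libraries of the next gate, Hoxa11. Hoxd4 stood at 43.0, 33.7 and 37.1 CPM there and was lowest in the Hoxa13 gate (19.2 ± 5.29 CPM, n = 3). Hoxd3 stayed between 1.83 and 3.57 CPM in the means of all 8 gates, and each gate in its order overlapped the next. Hoxd1 was too rare to order, with 399 UMIs in all mesenchymal cells of the 9 libraries.

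**Figure D1:**
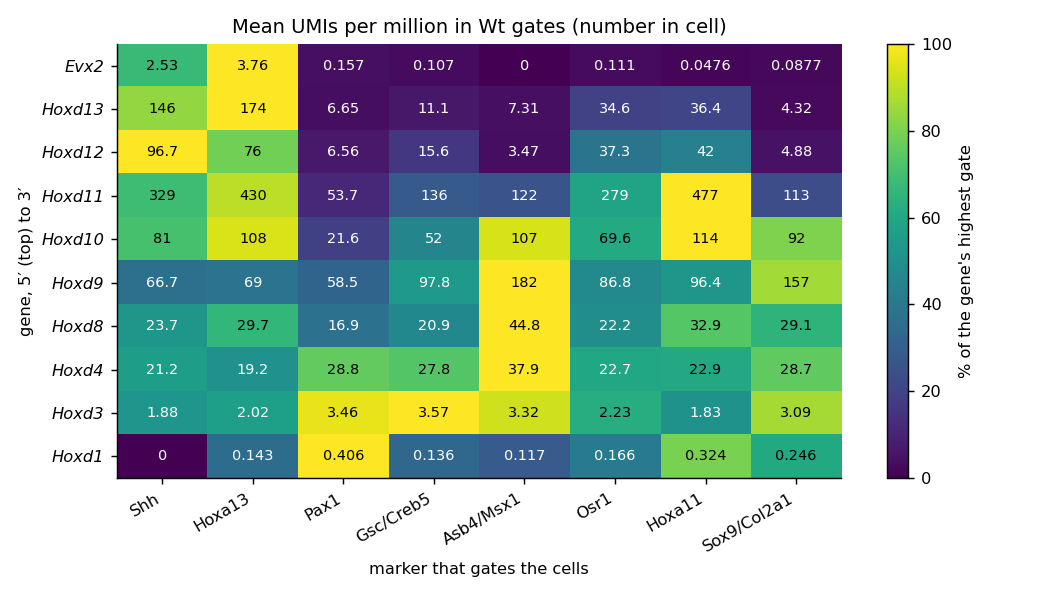
Mean CPM of the 10 members (rows, in their order along the cluster) in the 8 marker gates (columns) of Wt mesenchyme, over 3 libraries (2 in the Shh gate). The number is the mean and the colour is its percent of the gene's own highest gate, and the bright cells move from the Shh and Hoxa13 columns for Evx2 and Hoxd13 to the Hoxa11 column for Hoxd11 and the Asb4 with Msx1 column for Hoxd9, Hoxd8 and Hoxd4.

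The distal to proximal difference in Wt shrank gene by gene from Hoxd13 to Hoxd10, and past Hoxd10 it kept no order along the cluster. Evx2 passed the filter on low counts through the gates where it was high, so its difference and its call are given as a description only. Between the Hoxa13 gate and the Gsc or Creb5 gate, all 9 members that passed the filter on low counts (all but Hoxd1) were called by edgeR's quasi-likelihood test at an adjusted p below 0.05, 6 higher and 3 lower distally, where 51.8% of the 13426 genes tested were called. A call by itself is therefore close to the background, and the sizes carry the description. On the log2 scale the distal gate was higher by 4.77 ± 0.42 (SE) for Evx2, 3.78 ± 0.10 for Hoxd13, 2.34 ± 0.12 for Hoxd12, 1.64 ± 0.10 for Hoxd11 and 1.01 ± 0.07 for Hoxd10. Hoxd8 differed by 0.47 ± 0.09, a value that became -0.08 (adjusted p = 0.601) when cells that pass several gates were left out. Hoxd9 (-0.49 ± 0.07), Hoxd4 (-0.48 ± 0.08) and Hoxd3 (-0.79 ± 0.18) were lower distally.

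The difference between the posterior Shh gate and the anterior-proximal Pax1 gate likewise shrank from Hoxd13 to Hoxd10. The Pax1 gate is both anterior and proximal, so this comparison does not separate the 2 axes. Between the Shh gate and the Pax1 gate, 8 of the 9 members were called, 6 higher and 2 lower in the Shh gate, against 32.6% of all genes tested. The log2 difference was 4.54 ± 0.68 for Evx2, 4.42 ± 0.15 for Hoxd13, 4.12 ± 0.17 for Hoxd12, 2.58 ± 0.13 for Hoxd11 and 1.71 ± 0.10 for Hoxd10. For Hoxd13 and Hoxd12 these are 21.4-fold and 17.3-fold higher levels. Hoxd8 was higher by 0.37 ± 0.13, Hoxd9 differed by 0.07 ± 0.09 (adjusted p = 0.574; 0.36, adjusted p = 0.0103, with all 9 libraries fitted together), and Hoxd4 (-0.51 ± 0.10) and Hoxd3 (-0.87 ± 0.27) were lower. The calls of Hoxd3, Hoxd4 and Hoxd8 were lost without Wt replicate 2, which leaves 1 library in the Shh gate, assumed to vary like the other gates, and 5 called members. The same 3 calls were lost in cells thinned to 10000 UMIs (adjusted p = 0.788, 0.229 and 0.638). With cells that pass several gates left out, the calls of Evx2 (3.51, adjusted p = 0.270), Hoxd3 (-0.18, adjusted p = 0.928) and Hoxd4 (-0.19, adjusted p = 0.730) were lost. The value of Evx2 lay within its SE of that of Hoxd13. Cells of the Hoxa13 gate were deeper than the median mesenchymal cell of their library, with medians of 25112 to 74222 UMIs in the 9 libraries.

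Within single cells, Hoxd11, Hoxd12 and Hoxd13 were often found together. After each Wt cell was thinned to 10000 UMIs, 92.8% ± 3.12 (SD, n = 3) of cells with Hoxd12 also held Hoxd11, against 55.2% ± 1.79 of cells without Hoxd12. Hoxd11 was likewise found in 89.0% ± 3.20 of cells with Hoxd13 and in 55.9% ± 1.30 of cells without. Hoxd12 was found in 46.5% ± 6.98 of Hoxd13 cells and in 11.01% ± 3.01 of the others. Hoxd9 went the other way, with 42.6% ± 3.05 of Hoxd13 cells against 56.7% ± 5.58 of cells without Hoxd13, and its share did not differ beyond the spread between Hoxd11 cells (54.1% ± 5.41) and cells without Hoxd11 (54.4% ± 4.93). Cells of a library share their embryo, so these shares are descriptions over 3 libraries with no test.

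Transcripts of free RNA set a floor on such shares. With all UMIs counted, 4.09% of the 1858 erythroid cells (median 32353.5 UMIs), which should lack HoxD expression, held a Hoxd13 UMI, against 28.6% of mesenchymal cells (median 29231 UMIs). For Hoxd11 the shares were 15.2% and 71.6%, for Hoxd12 3.18% and 25.7%, and for Evx2 0.054% and 0.765%.

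In the mutants the 3 members at the 5′ end of the cluster were lower over the whole mesenchyme, and none was called higher. Of the 10 members, all of which passed the filter, Hoxd13, Evx2 and Hoxd12 were called lower in the mean of both mutants against Wt and 0 were called higher, where 2.12% of the 16773 genes tested were called. The median log2 difference of the 10 members was 0.02, against -0.01 over all genes tested. The comparison asks whether loss of Grem1 enhancer activity goes with a change in HoxD expression. The study itself names Hoxd13 and Hoxd12 from these same embryos, so their direction here is not independent evidence.

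Hoxd13, which encodes the most 5′ HOXD protein, stood at 37.4, 32.8 and 45.1 CPM in the Wt libraries. It stood at 27.1, 18.9 and 17.4 CPM in E1C8Δ/Δ and at 19.4, 19.5 and 25.3 CPM in E1C5Δ/Δ. Every mutant library lay below every Wt library. Such separations of ranges, here and below, were not counted over all genes and are descriptions only. The log2 difference of both mutants was -0.85 ± 0.12 (SE; adjusted p = 0.00887), a level 1.80-fold lower, and the single mutants gave -0.91 ± 0.15 (adjusted p = 0.00703) in E1C8Δ/Δ and -0.78 ± 0.15 (adjusted p = 0.0246) in E1C5Δ/Δ. The call for both mutants held when any of the 9 libraries was left out (adjusted p from 0.00423 to 0.0410), and the E1C5Δ/Δ call was lost without Wt replicate 3 or E1C5Δ/Δ replicate 1 or 2 (adjusted p = 0.0906, 0.106 and 0.0856), and also in thinned cells (0.0520) and without the deepest cells of each library (0.0528). In such sums fewer cells that express a gene and less RNA per cell cannot be told apart.

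Evx2 was the rarest of the 3, with 403 UMIs in all mesenchymal cells. Its Wt libraries stood at 0.425, 0.506 and 0.850 CPM, the E1C8Δ/Δ libraries at 0.056, 0.277 and 0.140 CPM and the E1C5Δ/Δ libraries at 0.0717, 0.0382 and 0.0875 CPM. The Wt libraries lay above all mutant libraries. The log2 difference was -2.26 ± 0.33 for both mutants (adjusted p = 0.00901), -1.61 ± 0.40 for E1C8Δ/Δ (adjusted p = 0.0330) and -2.92 ± 0.42 for E1C5Δ/Δ (adjusted p = 0.00834). The E1C8Δ/Δ call was lost without Wt replicate 2 or 3 or without E1C8Δ/Δ replicate 1 or 3 (adjusted p from 0.0578 to 0.138) and in thinned cells (0.103), and the mutants did not pass the test against each other (1.32 ± 0.45, adjusted p = 0.0861).

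Hoxd12, the neighbour of Hoxd13, stood at 26.1, 21.4 and 38.9 CPM in Wt, 24.6, 16.4 and 16.0 CPM in E1C8Δ/Δ and 16.6, 13.8 and 14.1 CPM in E1C5Δ/Δ. The highest mutant library, E1C8Δ/Δ replicate 1, overlapped the Wt range. The log2 difference of both mutants was -0.76 ± 0.17 (adjusted p = 0.0462). This call was lost without any 1 of Wt replicate 1 or 3, E1C8Δ/Δ replicate 2 or 3, or E1C5Δ/Δ replicate 1 or 2 (adjusted p from 0.0607 to 0.130, the last without Wt replicate 3, with a log2 difference of -0.51). It was also lost in cells thinned to 10000 UMIs (adjusted p = 0.0635), without the deepest cells of each library (0.0645) and with cells of mixed lineage kept (0.0635). Neither mutant alone passed edgeR's test for Hoxd12 (-0.64 ± 0.20, adjusted p = 0.0741, in E1C8Δ/Δ and -0.88 ± 0.20, adjusted p = 0.0639, in E1C5Δ/Δ), whereas both were called by DESeq2 (adjusted p = 0.0167 and 0.00113) and by edgeR with all genes of at least 1 count kept (0.0361 and 0.0133).

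The 7 other members gave no call in either mutant. Hoxd11, the most abundant member by UMIs, ranged from 200 to 262 CPM in Wt and from 175 to 226 CPM in the mutants, with a log2 difference of -0.17 ± 0.09 (adjusted p = 0.360). Hoxd10 (-0.07 ± 0.10), Hoxd9 (0.11 ± 0.11), Hoxd8 (0.19 ± 0.11), Hoxd4 (0.11 ± 0.10) and Hoxd3 (0.37 ± 0.17) had overlapping ranges. Hoxd1, at 0.056 to 0.394 CPM, gave 0.82 ± 0.37 (adjusted p = 0.258). In E1C8Δ/Δ against Wt, 2 of the 10 members were called, both lower, against 9.15% of all genes tested, and in E1C5Δ/Δ against Wt 2 were called, both lower, against 1.48%.

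**Figure D2:**
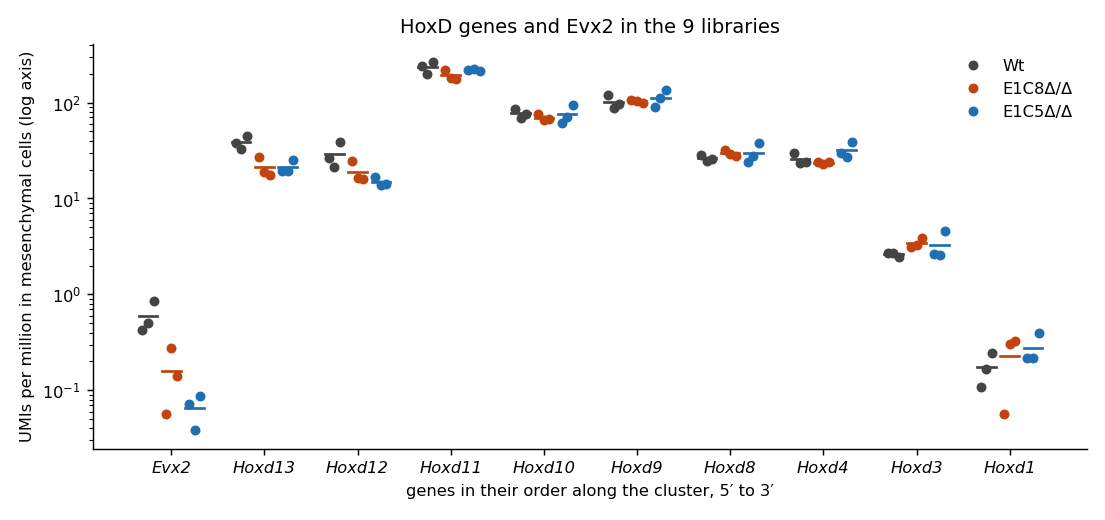
CPM in summed mesenchymal cells of each library (points, log axis) for the 10 members in their order along the cluster, with the mean of each genotype as a line. The Wt points of Evx2 and Hoxd13 lie above all mutant points, and from Hoxd12 to Hoxd1 Wt and mutant points overlap. The share of all genes that separate in this way was not counted.

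As a share of all UMIs of the 10 members, which needs no scaling between libraries, Hoxd13 took 7.19% ± 0.654 in Wt, 4.53% ± 0.648 in E1C8Δ/Δ and 4.19% ± 0.294 in E1C5Δ/Δ (SD, n = 3 each). Hoxd12 took 5.35% ± 1.27, 4.07% ± 0.623 and 2.95% ± 0.570. Hoxd11 took 43.7% ± 2.01, 41.5% ± 1.17 and 43.4% ± 4.84, and Hoxd9 took 18.9% ± 2.12, 22.5% ± 1.55 and 21.9% ± 2.16. The share of Hoxd13 was thus lower in both mutants by more than the SDs.

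**Figure D3:**
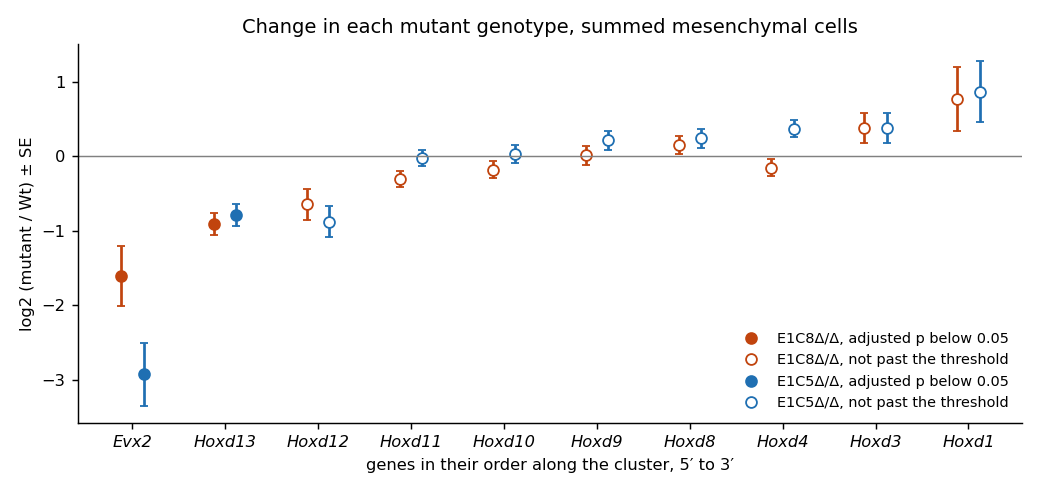
Log2 ratio of each mutant genotype to Wt in summed mesenchymal cells (points, ± SE from edgeR; 3 libraries per genotype) for the members in cluster order, with filled points for an adjusted p below 0.05. Evx2 and Hoxd13 are filled and below 0 in both mutants, Hoxd12 lies below 0 with open points, and the points from Hoxd11 to Hoxd4 lie between -0.31 and 0.37.

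Among male libraries alone, a setting chosen after seeing the data, Hoxd13 stood at 32.8 to 45.1 CPM in the 3 Wt libraries and at 17.4 and 19.5 CPM in the 2 mutant libraries. The log2 difference was -0.99 for Hoxd13 (adjusted p = 0.146), -2.46 for Evx2 (adjusted p = 0.375) and -0.88 for Hoxd12 (adjusted p = 0.503), so that the sizes were no smaller but 0 of the 10 members were called by edgeR, with 11 of 16628 genes called in all. With sex as a covariate in all 9 libraries, 0 members were called as well (Hoxd13 -0.99, adjusted p = 0.0643), with 7 of all genes called. In the single mutants, Hoxd13 kept its call in E1C8Δ/Δ with this covariate (-1.06, adjusted p = 0.0313) and Evx2 in E1C5Δ/Δ (-3.54, adjusted p = 0.0487), each as the only called member, where 125 and 36 of the 16773 genes tested were called. There was no female Wt library, and the part of sex in the calls cannot be told apart from that of genotype beyond these values.

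Between the mutants, Hoxd4 alone of the 10 members was called, a share at the background of 9.56% of all genes tested, so that its values are a description of 1 gene and no result about the members. Hoxd4 stood at 24.2, 22.7 and 23.8 CPM in E1C8Δ/Δ and at 29.9, 27.1 and 38.8 CPM in E1C5Δ/Δ, with no overlap, and the Wt libraries, at 29.6, 23.4 and 24.3 CPM, overlapped both. The log2 difference of E1C8Δ/Δ from E1C5Δ/Δ was -0.52 ± 0.12 (adjusted p = 0.0195), and it was no longer called without any 1 of the E1C8Δ/Δ libraries (adjusted p from 0.0525 to 0.0899). For Hoxd13 the mutants differed by -0.13 ± 0.15 (adjusted p = 0.631).

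Within the distal and posterior gates, where Hoxd13 was highest, it was lower in the gated cells of the mutants as well. In the Hoxa13 gate, Hoxd13 stood at 161, 161 and 201 CPM in Wt, 106, 111 and 106 CPM in E1C8Δ/Δ and 113, 86.8 and 96.1 CPM in E1C5Δ/Δ. In the Shh gate it stood at 168 and 124 CPM in Wt, 73.9 and 78.9 CPM in E1C8Δ/Δ and 70.2, 68.0 and 74.6 CPM in E1C5Δ/Δ. In both gates every mutant library lay below every Wt library. The log2 difference of both mutants was -0.72 ± 0.11 in the Hoxa13 gate (adjusted p = 0.00481) and -0.94 ± 0.12 in the Shh gate (adjusted p = 0.00930). In male libraries only, neither was called (-0.78, adjusted p = 0.149, and -0.91, adjusted p = 0.0721). The Hoxa13 gate call held without any 1 library. The Shh gate call was lost without Wt replicate 1 (-0.77) or without E1C8Δ/Δ replicate 2 or 3. Each of these fits leaves 1 library of that genotype in the gate, assumed to vary like the others.

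Evx2 passed the filter in the Hoxa13 gate through the Wt libraries, so its call there is given as a description only, with 2.50, 3.95 and 4.82 CPM in Wt, 0.836, 3.00 and 1.45 CPM in E1C8Δ/Δ and 0.622, 0.555 and 0.444 CPM in E1C5Δ/Δ. The highest E1C8Δ/Δ library overlapped Wt and the E1C5Δ/Δ libraries, which held 7 Evx2 UMIs together against 156 in Wt, did not. The log2 difference of both mutants was -1.80 ± 0.36 (adjusted p = 0.0291), and this call was lost without any 1 of Wt replicate 2 or 3, E1C8Δ/Δ replicate 1 or 3, or any E1C5Δ/Δ replicate (adjusted p from 0.0513 to 0.139). It was also lost with a gate threshold of 3 UMIs (adjusted p = 0.118), with cells of several gates left out (0.276) and in male libraries only (0.399). In the Shh gate Evx2 stood at 3.67 and 1.39 CPM in Wt, 2.56 and 1.47 CPM in E1C8Δ/Δ and 0.222, 0 and 0.136 CPM in E1C5Δ/Δ (3 UMIs in all). E1C5Δ/Δ missed the threshold (-3.98 ± 0.74, adjusted p = 0.0505). Evx2 passed the filter in this gate through the other genotypes, so this value too is a description only.

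Hoxd12 and Hoxd11 gave no call in these gates. Hoxd12 stood in the Hoxa13 gate at 65.2 to 95.4 CPM in Wt, 57.3 to 59.4 CPM in E1C8Δ/Δ and 34.7 to 60.1 CPM in E1C5Δ/Δ, with a log2 difference of -0.56 ± 0.17 (adjusted p = 0.133). Its ranges there did not overlap between Wt and the mutants. Over the left-out libraries the log2 difference of Hoxd12 ran from -0.72 to -0.39 (adjusted p from 0.0240 to 0.310). The smallest adjusted p, without E1C5Δ/Δ replicate 1, was a call. Hoxd11, the next gene, stood at 373 to 495 CPM in Wt, 361 to 412 CPM in E1C8Δ/Δ and 443 to 511 CPM in E1C5Δ/Δ in the same gate, and differed by 0.04 ± 0.11 (adjusted p = 0.904).

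**Figure D4:**
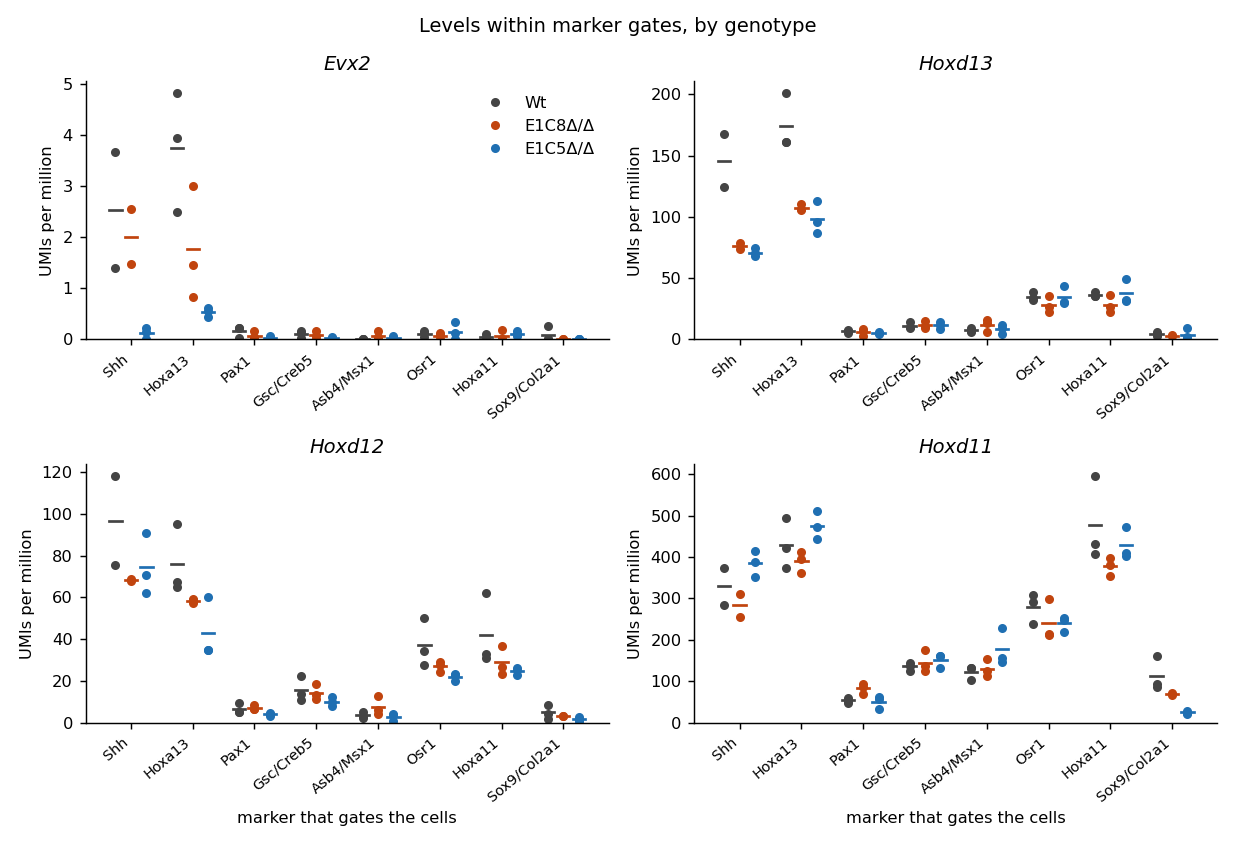
CPM of Evx2, Hoxd13, Hoxd12 and Hoxd11 in the 8 marker gates, by library (points) and genotype mean (lines), 2 or 3 libraries per genotype. The Hoxd13 points of the mutants lie below the Wt points in the Shh and Hoxa13 gates and among them in the Gsc or Creb5 gate, and the Hoxd11 points of E1C5Δ/Δ lie below all others in the Sox9 and Col2a1 gate.

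Across the 8 gates, 6 differences of a member between both mutants and Wt were called, all lower: Hoxd13 in 2 gates, Evx2 (as a description) in 1, and Hoxd9, Hoxd10 and Hoxd11 in the Sox9 and Col2a1 gate. Among all genes tested, 0.997% were called in the Hoxa13 gate (2 of 9 members, of which Evx2 is a description only). The shares were 0.195% in the Shh gate (1 of 9) and 2.42% in the Sox9 and Col2a1 gate (3 of 8). No member was called by edgeR in the other gates, where 0.234% (Pax1; 1 of 8 members at an unadjusted p below 0.05), 0.544% (Gsc or Creb5; 3 of 9), 0.0860% (Asb4 with Msx1; 0 of 8), 0.911% (Osr1; 1 of 8) and 1.71% (Hoxa11; 1 of 9) of all genes were. For the single mutants, Hoxd13 was called in the Hoxa13 gate in E1C8Δ/Δ (1 of 9 members, against 5.46% of all genes). In E1C5Δ/Δ, Hoxd13 and Evx2 were called there (2 of 9, against 0.739%), Evx2 as a description only. In the Shh gate Hoxd13 was called in E1C8Δ/Δ (1 of 9, against 1.43%) and in E1C5Δ/Δ (1 of 9, against 0.260%).

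The cells outside all gates, 28.3% to 39.3% of mesenchymal cells of a library, also held calls. Hoxd12 stood there at 21.7, 16.3 and 26.3 CPM in Wt, 19.6, 14.5 and 12.7 CPM in E1C8Δ/Δ and 12.6, 10.1 and 11.5 CPM in E1C5Δ/Δ. The E1C8Δ/Δ range overlapped that of Wt and the E1C5Δ/Δ range lay below it. Hoxd12 was called lower for both mutants (-0.68 ± 0.14, adjusted p = 0.0316, 1 of 9 members, against 2.37% of all genes). It was also called lower in E1C5Δ/Δ (-0.84 ± 0.16, adjusted p = 0.0289, 1 of 9, against 1.36%). The E1C5Δ/Δ call did not hold throughout, as left-out libraries gave -0.98 to -0.71 (adjusted p from 0.0145 to 0.0905). The call for both mutants was lost without any 1 of Wt replicate 1 or 3, E1C8Δ/Δ replicate 2 or 3, or E1C5Δ/Δ replicate 2 (adjusted p from 0.05005 to 0.0978), with the replicate block (0.0501), with a gate threshold of 3 UMIs (0.0801) and in male libraries only (0.350). Hoxd11, at 237, 203 and 257 CPM in Wt and 181, 179 and 166 CPM in E1C8Δ/Δ, was called lower in E1C8Δ/Δ (-0.43 ± 0.09, adjusted p = 0.0169; 1 of 9, against 8.02%), a share near the background, and lost this call without Wt replicate 1 or any 1 E1C8Δ/Δ library (adjusted p from 0.0537 to 0.0798).

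The fall of Hoxd13 differed between positions in 1 of the 2 tests of that difference. In the Gsc or Creb5 gate Hoxd13 stood at 10.2, 13.9 and 9.12 CPM in Wt and 8.46 to 15.4 CPM in the mutants, a log2 difference of 0.04 ± 0.19 (adjusted p = 0.952). The change in the Shh gate minus the change in the Gsc or Creb5 gate was -0.95 ± 0.20 (adjusted p = 0.0123), and 1 of 9 members was called in this interaction against 0.308% of all genes. Without Wt replicate 1, which leaves 1 Wt library in the Shh gate, it was -0.64 (adjusted p = 0.613), and with cells of several gates left out it was -0.80 (adjusted p = 0.754). The same difference for the Hoxa13 gate was -0.64 ± 0.19 (adjusted p = 0.107). There 0 of 9 members were called by edgeR, 1 at an unadjusted p below 0.05, against 0.405% of all genes.

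The makeup of the gates also differed between the genotypes. The Hoxa13 gate held 5.11% to 7.77% of mesenchymal cells in Wt, 2.14% to 4.35% in E1C8Δ/Δ and 1.20% to 3.32% in E1C5Δ/Δ. This gate asked for 2 UMIs at any depth. The median mesenchymal cell held 30626 to 47823 UMIs in Wt, 16908 to 26903 in E1C8Δ/Δ and 31014 to 44463 in E1C5Δ/Δ. The part of depth in the gate's shares and in its Hoxa13 levels was not tested. Hoxa13 itself, the gating gene, stood in its gate at 61.5 to 76.0 CPM in Wt, 75.3 to 89.6 CPM in E1C8Δ/Δ and 37.7 to 61.6 CPM in E1C5Δ/Δ. In the Shh gate, Hoxa13 stood at 63.7 and 46.4 CPM in Wt, 40.7 and 58.6 CPM in E1C8Δ/Δ and 16.8 to 20.8 CPM in E1C5Δ/Δ. Shh itself stood in this gate at 175 and 129 CPM in Wt, 141 and 162 CPM in E1C8Δ/Δ and 77.1 to 120 CPM in E1C5Δ/Δ. The Shh gate held 2.34% to 3.26% of mesenchymal cells in Wt, 1.42% to 1.98% in E1C8Δ/Δ and 1.905% to 2.87% in E1C5Δ/Δ. The Gsc or Creb5 gate held 15.9% to 20.8% in Wt, 22.4% to 28.6% in E1C8Δ/Δ and 17.4% to 22.2% in E1C5Δ/Δ. The part of these differences in the Hoxd13 and Evx2 results was not tested.

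In the cartilage-forming core, a different set of members was lower, and mainly in E1C5Δ/Δ. In the Sox9 and Col2a1 gate, Hoxd11 stood at 93.3, 85.2 and 161 CPM in Wt, 71.2 and 65.8 CPM in E1C8Δ/Δ and 27.9, 23.4 and 21.7 CPM in E1C5Δ/Δ. Hoxd10 stood at 95.8, 77.4 and 103 CPM in Wt, 63.5 and 70.4 CPM in E1C8Δ/Δ and 16.2, 44.4 and 31.8 CPM in E1C5Δ/Δ. For both genes the 3 genotypes formed 3 ranges with no overlap. Hoxd9, at 168, 128 and 175 CPM in Wt, stood at 138 and 127 CPM in E1C8Δ/Δ, which overlapped the Wt range, and at 37.7, 92.1 and 71.2 CPM in E1C5Δ/Δ, below it.

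In E1C5Δ/Δ against Wt, 4 of 8 members were called in this gate, all lower, against 3.79% of all genes tested. The log2 difference grew from Hoxd8 (-0.79 ± 0.20, adjusted p = 0.0346) through Hoxd9 (-1.19 ± 0.20, adjusted p = 0.00259) and Hoxd10 (-1.55 ± 0.20, adjusted p = 0.000571) to Hoxd11 (-2.24 ± 0.23, adjusted p = 0.000160). Hoxd12 (-1.66 ± 0.61, adjusted p = 0.198) and Hoxd13 (-0.51 ± 0.53, adjusted p = 0.799), with 12 and 24 UMIs in E1C5Δ/Δ, did not pass, and Hoxd4 gave 0.23 ± 0.17 (adjusted p = 0.678). In E1C8Δ/Δ against Wt 0 of 8 members were called by edgeR, 2 at an unadjusted p below 0.05, against 0.833% of all genes, with -0.71 ± 0.21 for Hoxd11 (adjusted p = 0.138). E1C8Δ/Δ was higher than E1C5Δ/Δ for 3 of 8 members, against 2.10% of all genes: Hoxd9 by 0.94 ± 0.21 (adjusted p = 0.0381), Hoxd10 by 1.08 ± 0.22 (adjusted p = 0.0217) and Hoxd11 by 1.53 ± 0.25 (adjusted p = 0.00750). In other cells the calls between the mutants ran the opposite way, with E1C8Δ/Δ below E1C5Δ/Δ for Hoxd9 (-0.47 ± 0.11, adjusted p = 0.0316) and Hoxd4 (-0.66 ± 0.11, adjusted p = 0.0109) in the Gsc or Creb5 gate (2 of 9 members, against 5.08% of all genes), for Hoxd4 in the Osr1 gate (-0.63 ± 0.14, adjusted p = 0.0269; 1 of 8, against 4.74%) and for Hoxd4 outside all gates (-0.56 ± 0.13, adjusted p = 0.0273; 1 of 9, against 8.11%). Each of these 4 calls was lost without E1C8Δ/Δ replicate 2 (adjusted p from 0.0674 to 0.192). For both mutants together Hoxd11 gave -1.48 ± 0.18 (adjusted p = 0.000968), Hoxd10 -1.01 ± 0.16 (adjusted p = 0.00493) and Hoxd9 -0.72 ± 0.16 (adjusted p = 0.0309), the last lost without Wt replicate 1 or 3, E1C8Δ/Δ replicate 2 or 3 or E1C5Δ/Δ replicate 3 (adjusted p from 0.0852 to 0.113).

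The E1C5Δ/Δ cells of this gate were few and differed from Wt in 6 of 7 other positional genes compared, a set chosen with earlier results known. They numbered 30, 40 and 221, which is 0.817% to 2.71% of mesenchymal cells against 5.13% to 8.88% in Wt. Meis2, a proximal homeobox gene, stood in them at 347, 342 and 528 CPM against 229, 168 and 93.8 CPM in Wt (log2 difference 1.32 ± 0.24, adjusted p = 0.00409). Irx3, another proximal gene, and Meis1 were higher (2.09 ± 0.30, adjusted p = 0.000905, and 0.77 ± 0.18, adjusted p = 0.0247), and Hoxa10 (-1.96 ± 0.21, adjusted p = 0.000187), Tbx5 (-1.19 ± 0.21, adjusted p = 0.00376) and Shox2 (-0.88 ± 0.16, adjusted p = 0.00519) were lower. The part of this difference in the fall of Hoxd8 to Hoxd11 was not tested. Among male libraries alone, the 3 genes called for both mutants in this gate lost their calls. Hoxd11 gave -1.15 (adjusted p = 0.493), Hoxd10 -0.59 (adjusted p = 0.616) and Hoxd9 -0.46 (adjusted p = 0.645).

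Counted by cells, the shares of cells with Hoxd12 or Hoxd13 were lower on average in the mutants, but no share passed after adjustment. With each cell thinned to 10000 UMIs, which left out 60 to 253 shallower cells per Wt library, 40 to 797 per E1C8Δ/Δ library and 67 to 386 per E1C5Δ/Δ library, Hoxd12 or Hoxd13 was found in 24.9%, 24.5% and 30.8% of mesenchymal cells in the Wt libraries, 24.5%, 20.6% and 18.9% in E1C8Δ/Δ and 21.0%, 19.3% and 21.7% in E1C5Δ/Δ. The mutant mean minus the Wt mean was -5.72 percentage points. The two-sided exact permutation test over libraries gave p = 0.0119, the smallest that the 84 splits of 3 against 6 allow, and 0.0714 after adjustment over the 15 shares compared. A share at that smallest p passes after adjustment only where several of the 15 overlapping shares reach it too, so the adjusted test had little power. The difference was -3.69 points and p = 0.0714 without Wt replicate 3, by the same exact test, which then has fewer splits.

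Hoxd12 and Hoxd13 were found together in 8.16%, 6.53% and 10.1% of Wt cells, 6.65%, 4.18% and 4.18% of E1C8Δ/Δ cells and 4.52%, 3.55% and 4.75% of E1C5Δ/Δ cells. The highest E1C8Δ/Δ library overlapped Wt. The exact permutation p was 0.0238 (adjusted 0.0714), and 0.0714 before adjustment without Wt replicate 1 or 3. Hoxd13 without Hoxd12 was found in 9.40% ± 0.631 of Wt cells, 8.49% ± 1.51 of E1C8Δ/Δ cells and 10.1% ± 1.15 of E1C5Δ/Δ cells (SD, n = 3 each), a difference of -0.10 points (exact permutation p = 0.929). This difference moved with the setting. It was -1.48 points with at least 2 UMIs asked for (unadjusted exact permutation p = 0.0476) and -1.48 points in cells thinned to 5000 UMIs (0.0833). With all UMIs counted it was -0.74 points (0.679). A cell scored as without Hoxd12 can hold transcripts that were not sampled. Hoxd12 without Hoxd13 was found in 9.04% ± 2.33, 7.83% ± 0.222 and 6.28% ± 0.906 (exact permutation p = 0.119, adjusted 0.223). Of the cells with Hoxd13, 46.5% ± 6.98 in Wt, 36.8% ± 3.14 in E1C8Δ/Δ and 29.7% ± 3.32 in E1C5Δ/Δ also held Hoxd12.

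Of the single genes, Hoxd12 was found in 17.3% ± 3.98 of Wt cells, 12.8% ± 1.35 of E1C8Δ/Δ cells and 10.6% ± 1.20 of E1C5Δ/Δ cells (exact permutation p = 0.0119, adjusted 0.0714). Hoxd13 was found in 17.7% ± 1.23, 13.5% ± 2.87 and 14.4% ± 1.52 (exact permutation p = 0.0476, adjusted 0.119). Hoxd11 was found in 61.8% ± 1.85, 58.7% ± 1.89 and 59.3% ± 1.94 (exact permutation p = 0.0952, adjusted 0.204). Without thinning Hoxd13 was found in 35.7% ± 4.30, 22.7% ± 4.41 and 31.2% ± 3.17 of cells, shares that also move with depth.

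**Figure D5:**
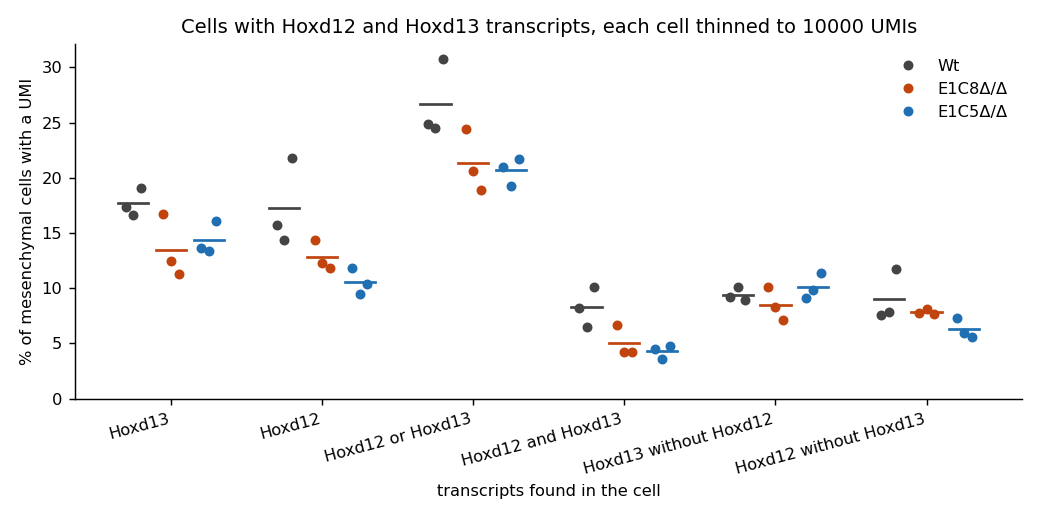
Percent of mesenchymal cells with at least 1 UMI of the transcripts named on the x axis, each cell thinned to 10000 UMIs, by library (points) and genotype mean (lines), 3 libraries per genotype. All E1C5Δ/Δ points lie below the Wt points for cells with both transcripts, and the genotypes overlap for cells with Hoxd13 and no Hoxd12.

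Other genes of the pathway and of the neighbourhood were read from lists fixed together with the members, against the 2.12% of all genes called in the same comparison. Of 9 neighbours of the cluster on chromosome 2 that could be tested, 0 were called by edgeR in both mutants against Wt, with Mtx2 at 0.23 (adjusted p = 0.125) and Haglr at 0.36 (adjusted p = 0.143). Of 12 counterparts in the HoxA cluster, Hoxa13, the partner of Hoxd13 in digit formation, was called lower (-1.20 ± 0.27, adjusted p = 0.0451) and 0 were called higher. In E1C8Δ/Δ alone, 2 of the 12 were called higher and 0 lower, against 9.15% of all genes, with Hoxa13 at -0.59 (adjusted p = 0.274). In E1C5Δ/Δ alone 2 were called lower and 0 higher, against 1.48% of all genes, with Hoxa13 at -1.80 (adjusted p = 0.0226). Evx1, the counterpart of Evx2, gave -1.06 ± 0.27 (adjusted p = 0.0634). Of 14 other signalling and patterning genes of the limb bud, 2 were called lower. They were Grem1 (-1.13 ± 0.14, adjusted p = 0.00447), whose enhancers are deleted, and Sall1 (-0.74 ± 0.15, adjusted p = 0.0305). Shh, the posterior signal, gave -0.79 ± 0.22 (adjusted p = 0.0955). For both mutants, no gene was called by edgeR among 9 cofactors of HOX proteins or 23 Polycomb, trithorax and other chromatin genes. Of the latter, Rad21, which is 1 of the other chromatin genes, came nearest (-0.29 ± 0.07, adjusted p = 0.0631). In E1C8Δ/Δ alone, 1 neighbour, 3 of the 14 limb bud genes, 1 cofactor and 2 chromatin genes were called lower, against 9.15% of all genes. None of these was called higher. In E1C5Δ/Δ alone, 1 cofactor was called higher and 0 genes of the neighbour, limb bud and chromatin lists were called, against 1.48%.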

How the data were processed

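The authors counted reads with Cell Ranger 6.0.1 on the mm10 build from 10x 3′ libraries and deposited the UMI counts per gene and barcode, without normalization. Here, cells with more than 2500 genes, under 200000 UMIs and under 10% mitochondrial UMIs were kept. Cells with 3 or more mesenchymal markers were mesenchymal, and those that also carried 3 or more markers of another lineage were dropped as mixed. Cells with fewer mesenchymal markers took the other lineage with the most markers, if 3 or more and without a tie. These were not checked for a second lineage, and no doublet caller was run. Gates needed 2 UMIs of a marker. Where over 25% of mesenchymal cells had these, gates also needed a CPM at or above the marker's 80th percentile in Wt. The Asb4 with Msx1 gate and the Sox9 with Col2a1 gate needed both markers to pass. UMIs were summed per library, each from a separate embryo, and tested over all genes with edgeR 4.0.16 (quasi-likelihood, TMM, filterByExpr, Benjamini-Hochberg). X, Y and transgene features were left out, and gating genes were left out of all fits but those of the whole mesenchyme. Fits between gates had library as a block. SEs are the log2 difference over the root of edgeR's F. The members, lists and tests were chosen with earlier results of these data known. Named genes were the members and up to 4 genes of a list with the smallest adjusted p. On simulated data, 162 of 200 genes changed by a log2 value of 1 were recovered for both mutants against Wt in mesenchyme (16565 genes, 14 false calls). DESeq2 1.42.0 was an alternative. Sequences are from RefSeq and gene positions from GENCODE.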

Additional observations from a re-analysis of the deposited data

Results flagged for a closer look

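A few differences between gates or mutants passed a test of the difference itself. The difference of Hoxd13 from Wt was lower in the Shh gate than in the Gsc or Creb5 gate by -0.95 on the log2 scale. This call was lost without Wt replicate 1 (-0.64), which leaves 1 Wt library in the Shh gate. It was also lost with cells of several gates left out (-0.80, adjusted p = 0.754). The same test for the Hoxa13 gate in place of the Shh gate called 0 of 9 members. In the Sox9 and Col2a1 gate, E1C8Δ/Δ stood above E1C5Δ/Δ by 0.94 for Hoxd9, 1.08 for Hoxd10 and 1.53 for Hoxd11 (log2). The opposite sign was found in the Gsc or Creb5 gate for Hoxd9 (-0.47) and Hoxd4 (-0.66), where 5.08% of all genes were called. It was also found for Hoxd4 in the Osr1 gate (-0.63, against 4.74%) and outside all gates (-0.56, against 8.11%). Each of these calls of opposite sign was lost without E1C8Δ/Δ replicate 2 (adjusted p from 0.0674 to 0.192). In the whole mesenchyme, Hoxd4 differed between E1C8Δ/Δ and E1C5Δ/Δ by -0.52 (log2), as 1 of 10 called members where 9.56% of all genes were called, a share at the background, and the call was lost without any 1 of the E1C8Δ/Δ libraries (adjusted p from 0.0525 to 0.0899). The groups hold 3 libraries or fewer, so single outlying libraries were not tested for.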

How the results depend on the processing

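Of 1103 values recomputed for 79 results, 938 kept their direction and side of the threshold (or stayed near the reported value), and 12 changed sign. For both mutants against Wt in mesenchyme, where 3 members were called, 0 were called with embryo sex as a covariate (7 of 16773 genes in all) and 0 in male libraries only (11 of 16628), a setting chosen after seeing the data. In E1C8Δ/Δ against Wt (2 called) 1 was called with sex as a covariate (125 of 16773 genes) and 1 in cells thinned to 10000 UMIs (820 of 14544), and in E1C5Δ/Δ against Wt (2 called) 1 with sex (36 of 16773), 1 without the deepest cells (229 of 16222) and 1 in thinned cells (129 of 14544). In the Shh against Pax1 comparison (8 called) 5 were called in thinned cells and 5 with cells of several gates left out. Within gates (6 called) 0 were called in male libraries only. The cause was not tested.

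The replicate numbers do not pair the samples: same-numbered libraries of different genotypes had correlations of their deviations from -0.410 to 0.055 (median -0.095, 9 pairs). The 18 other pairs ran from -0.413 to 0.600 (median 0.062). Sets of libraries that run across genotypes under other numbers were not tested for. With the replicate number as a block, 2 members were called for both mutants (Hoxd12 at an adjusted p of 0.0839; 92 of 16773 genes in all), 1 for E1C8Δ/Δ (702 genes), 1 for E1C5Δ/Δ (131 genes) and 5 within gates.

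Leaving out 1 library at a time gave 2 to 3 called members for both mutants, 1 to 2 for E1C8Δ/Δ, 1 to 3 for E1C5Δ/Δ, 0 to 1 between the mutants, 9 to 9 for the Hoxa13 against Gsc or Creb5 comparison, 5 to 8 for Shh against Pax1, 3 to 6 within gates, and a difference in the share of cells with Hoxd12 or Hoxd13 of -6.82 to -3.69 points. Sign changes were Hoxd10 in both mutants (-0.138 to 0.0063 over the left-out libraries), Hoxd11 in E1C5Δ/Δ (-0.101 to 0.0539; 0.0058 with mixed-lineage cells kept), Hoxd8 between the Hoxa13 and Gsc or Creb5 gates (-0.0803 with cells of several gates left out), Hoxd13 in the Gsc or Creb5 gate (-0.0665 to 0.29; -0.15 with cells of several gates left out; -0.32 in male libraries only) and the Evx2 interaction of the Hoxa13 gate (0.21 with cells of several gates left out). None of these was called in the reported fit except Hoxd8.

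Over all genes, 355 were called for both mutants, against 1035 by DESeq2, 185 in thinned cells, 233 with mixed-lineage cells kept and 130 to 851 without 1 library. Evx2 and Hoxd1 rest on 403 and 399 UMIs, which limits the precision of their values within gates.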

Other observations

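Outside the mesenchyme, the highest levels of the members in classes of over 100 cells were those of Hoxd4, Hoxd8 and Hoxd11. In 448 cells with muscle progenitor markers, Hoxd4 stood at 19.7 CPM, with 225 UMIs, against 4.90 CPM for Hoxd8 and 8.66 CPM for Hoxd11. In 490 endothelial cells, Hoxd8 stood at 14.995 CPM and Hoxd4 at 10.1 CPM, with UMIs in 32.9% and 27.1% of cells. Erythroid cells, taken as the level of free RNA, held 0.929 CPM of Hoxd8 and 0.976 CPM of Hoxd4, with UMIs in 2.96% and 3.28% of cells. Hoxd11, the member with the most UMIs in mesenchyme, stood at 11.8 CPM in ectodermal cells (UMIs in 19.5% of 431 cells), 5.81 CPM in endothelial and 5.12 CPM in erythroid cells (UMIs in 15.2%). Evx2 had 0 UMIs in the 490 endothelial and in the 431 ectodermal cells. These levels are pooled over libraries and genotypes, with no test.

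By Pearson's r of log2(CPM + 1) over 9 classes of Wt cells (the 8 gates and the ungated cells), the gene most like Hoxd13 among 7821 was Usp16 (0.973, between 44.4 and 51.0 CPM), followed by Nup88, Golm1, Nipa2 and Ivns1abp. For Hoxd11 it was Slc24a5 (0.956), followed by Lamb1, Mtrf1l, Czib and Gadd45a, and for Hoxd8 it was Frzb (0.930, between 11.7 and 56.3 CPM), followed by Tmtc4, Lmo1, Lypla1 and Ccdc91. The classes share libraries and embryos, and the narrow ranges of several of these genes show that a like order of gates need not mean a like size of difference.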
